A study of Homo sapiens with 21 samples.

Results

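The libraries labelled shARID1B.3 were compared with the control libraries of the same study, gene by gene. They are the 3 libraries with that label and the 3 control libraries, 6 of 21 in all, and are defined by their labels. All of them were made from SK-N-BE(2), an established human neuroblastoma cell line with amplified MYCN, and poly(A) RNA was sequenced 72 h after transduction. The control cells carried a non-silencing hairpin, and the cells labelled shARID1B.3 carried, by their label, a short hairpin RNA (shRNA) named for ARID1B, so that both groups were transduced and differ in the hairpin. It is 1 hairpin in 1 cell line, and the libraries labelled shARID1B.2, made by their label with another hairpin named for ARID1B, are the only other condition with the same labelled target. The study as a whole asked what the cells express when the BAF complex is disrupted, and the remaining conditions, labelled shARID1A.2, shARID1A.4, shARID1A/B.2.3 and shARID1A/B.4.2, are used here only for values set side by side.

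BAF complexes are a class of SWI/SNF chromatin remodellers, assemblies of many subunits that use ATP to slide or evict nucleosomes and so open regulatory DNA. ARID1A and ARID1B are large, closely related subunits that bind DNA and take the same place in the complex, so that any BAF particle holds one or the other. Neuroblastoma arises from the sympathoadrenal lineage of the neural crest, whose identity rests on transcription factors such as HAND2, GATA3 and MYCN.

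Values are the deposited ones, reads per gene divided by a size factor of the library. The control libraries held 30579746 to 34973565 reads and those labelled shARID1B.3 held 35048596 to 41077638, so the latter were the deeper ones in every case. Genes with at least 1 read numbered 23507 to 24102 and 24467 to 25102. Replicates differed by more than counting noise, with a chi-square divided by its degrees of freedom of 2.961 to 4.258 between pairs of libraries labelled shARID1B.3 and of 1.866 to 2.312 between controls. Log2 of the value plus 1 was fitted by limma in all 21 libraries of 7 conditions, and a gene is called where the p-value adjusted by the Benjamini-Hochberg method over 18584 genes was under 0.05. A log2 fold change is always the libraries labelled shARID1B.3 minus the libraries they are compared with, on the log2(value + 1) scale. The added 1 shrinks the change of genes with few reads. Where single libraries are near 0, the fitted change can still be larger than by edgeR or DESeq2, as for BLOC1S5-TXNDC5 below. Nothing in the labels ties the replicates to separate cultures, so the p-values measure the spread between these samples, which may be technical.

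The targeted genes go against the label. ARID1A (chromosome 1, 26693236 to 26782110, GRCh38) had values of 6097, 6374 and 6463 in the control libraries and of 2507, 2479.9 and 2449.7 in those labelled shARID1B.3. ARID1B (chromosome 6, 156776020 to 157210779) had values of 5793, 5804 and 5791 in the control libraries and of 6182, 6038 and 6053 in those labelled shARID1B.3. The groups did not overlap for either gene, and it was ARID1A that was low. The log2 fold change of ARID1A was -1.35 (standard error, SE, 0.03, limma adjusted p = 4.39e-22), whereas ARID1B rose by 0.07 (SE 0.02, limma adjusted p = 0.00898), a small change that passed the threshold. The libraries labelled shARID1B.2 had values of 1962, 1882 and 1916 for ARID1A and of 5056, 4913 and 5043 for ARID1B, so that ARID1A was low under both labels. Whether hairpins, labels or columns were exchanged cannot be told apart from these files. Every direction given from here on belongs to libraries named by this label, in which ARID1A and not ARID1B was reduced.

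**Figure D1:**
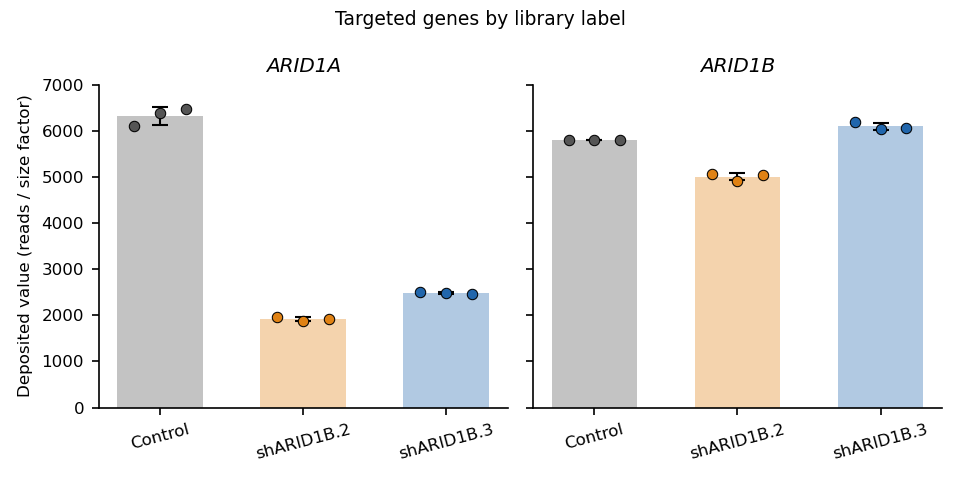
Deposited values of ARID1A and ARID1B in 9 libraries, with the label on the x axis and reads divided by the size factor on the y axis. Points are libraries, bars are means and error bars are SDs of 3 libraries. ARID1A was at 2450 to 2507 under the label shARID1B.3 against 6097 to 6463 in the control, and ARID1B was at 6038 to 6182 against 5791 to 5804.

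Promoter stretches of 4 genes are shown because each belongs to a group of genes described here and holds the motif that was looked for in that group. They are RefSeq sequences on GRCh38.p14, given 5′ to 3′ on the strand of the gene, from 250 bases before the annotated start up to the start or to the first exon base in GENCODE release 29. AARS1 (chr16:70289544-70289756, minus strand) stands for the amino acid genes that rose and carries TGATGNAA in its reverse orientation, a core shared by elements that ATF4 binds. VGF (chr7:101165594-101165819, minus strand) had the largest rise among genes with a mean value of at least 1000 and carries the palindrome TGACGTCA, known as the cyclic AMP response element. SAMD9 (chr7:93118024-93118229, minus strand) stands for interferon-stimulated genes that fell and carries the core of the interferon-stimulated response element, GAAA repeated after any pair of bases. CCN2 (chr6:131951374-131951622, minus strand) is a target of the Hippo pathway that fell and carries GGAATG, the core to which TEAD factors bind, at 3 places. The capitals mark these motifs.
AARS1: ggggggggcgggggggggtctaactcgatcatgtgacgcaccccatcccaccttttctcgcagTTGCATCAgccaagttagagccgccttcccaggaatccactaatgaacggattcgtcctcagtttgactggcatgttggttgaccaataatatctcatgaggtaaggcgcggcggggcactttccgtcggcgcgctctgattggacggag
VGF: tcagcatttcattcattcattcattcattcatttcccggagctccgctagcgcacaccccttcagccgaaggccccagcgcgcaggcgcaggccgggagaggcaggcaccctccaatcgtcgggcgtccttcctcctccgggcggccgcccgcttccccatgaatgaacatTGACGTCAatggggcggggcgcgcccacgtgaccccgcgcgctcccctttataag
SAMD9: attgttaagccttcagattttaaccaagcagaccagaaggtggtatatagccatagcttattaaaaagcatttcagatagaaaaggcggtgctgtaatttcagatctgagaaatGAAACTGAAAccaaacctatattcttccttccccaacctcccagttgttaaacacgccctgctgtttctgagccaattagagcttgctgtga
CCN2: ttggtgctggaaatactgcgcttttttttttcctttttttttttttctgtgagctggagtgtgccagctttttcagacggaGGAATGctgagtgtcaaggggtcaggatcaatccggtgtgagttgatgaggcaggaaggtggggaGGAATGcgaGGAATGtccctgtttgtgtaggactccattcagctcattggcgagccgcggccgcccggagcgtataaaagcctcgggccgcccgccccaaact

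Both strands of the 250 bases before the start were searched in 35116 RefSeq promoters, several of which can belong to the same gene. TGATGNAA was present in 3.14% of all promoters and in 7 of 40 promoters (17.5%) of 24 matched genes of the ATF4 and amino acid list. The interferon element was present in 3.02% of all promoters and in 22 of 40 promoters (55.0%) of 30 matched interferon-stimulated genes. GGAATG, a short motif, was present in 11.9% of all promoters and in 5 of 29 promoters (17.2%) of the Hippo list, among them those of CCN2, ANKRD1 and YAP1. TGACGTCA was present in 1.65% of all promoters and in 4 of 35 promoters (11.4%) of the secretory granule and synaptic vesicle list, namely those of VGF, CHGA, PCSK1 and SYN1. TGATGNAA and TGACGTCA differ within their first letters, so that no stretch matches both in full, and a match describes the letters of a window and not a bound site.

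With 63.9% of all tested genes called against the control (11867 of 18584), a call by itself says little of a gene or list here. Calls were split evenly, with 5926 genes (31.9%) higher and 5941 (32.0%) lower under the label shARID1B.3. Counts of called members in the lists below are to be read beside these shares. Most genes named below were picked for large called changes, so groups that do not overlap are expected from that choice. Such separation is given as description and not as further evidence, and its share over all genes tested was not counted. A log2 fold change past 1 in size was called for 2189 genes (11.8%), 966 of them (5.2%) higher and 1223 (6.58%) lower. With the stricter pair of cutoffs of the study, 1.5 and an adjusted p-value of 0.001, 659 genes (3.55%) were left, 237 higher (1.28%) and 422 lower (2.27%). Genes with few reads carry many of the large changes, and among the 14637 genes with at least 10 reads in every library these numbers were 1168 and 340. With upper-quartile scaling the median of all genes moved from 0.01 to 0.08, and list medians moved up with it.

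Among genes with a mean value of at least 100, the largest falls included secreted and membrane proteins. AQP1, the water channel aquaporin-1, had values of 409, 385 and 391 in the control libraries and 22.9, 24.7 and 21.6 in those labelled shARID1B.3, -4.04 on the log2 scale (limma, SE 0.12, adjusted p = 1.82e-19). EDN3, the peptide ligand endothelin-3 of neural crest development, went from 1855, 1751 and 1822 to 194, 95.0 and 182 (-3.58). The groups were far apart for both genes. MMP28, a secreted metalloproteinase, fell by 3.56, AIF1L, an actin-binding protein, by 3.43, MEGF6 by 3.27 and COL26A1, a collagen chain, by 3.24 on the log2 scale. PKIA, an inhibitor of protein kinase A, had the most reads of these genes, with values of 4596, 4372 and 4272 in the control libraries and 560.5, 524 and 544 in those labelled shARID1B.3 (-3.02, SE 0.04). The antisense gene TMEM108-AS1 (-3.78) and the unnamed locus AC068547.1 (-3.98) belong to the same group, and their reads are uncertain where a gene on the other strand or an overlapping gene shares them. BLOC1S5-TXNDC5, a readthrough transcript, had the largest fitted fall by limma (-4.69), but its values of 126, 70.5 and 278 in the control libraries and 0, 0 and 146 under the label shARID1B.3 overlapped, its reads are shared with TXNDC5, and the call was lost with edgeR (-1.60, adjusted p = 0.188), with DESeq2 (-1.70, adjusted p = 0.408) and without control replicate 3, shARID1B.3 replicate 1 or shARID1B.3 replicate 2. Without shARID1B.3 replicate 3 its log2 fold change was -7.09.

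The largest rises included transporters, secreted neuronal proteins and stress genes. SLC16A6, a monocarboxylate transporter, had values of 16.4, 15.7 and 17.5 in the control libraries and 379, 381 and 424 in those labelled shARID1B.3, 4.50 on the log2 scale (limma, SE 0.15, adjusted p = 2.21e-18). NPTX1, a pentraxin secreted at synapses, went from 31.7, 42.5 and 37.0 to 450.0, 505 and 433 (3.61). VGF, a precursor of neuropeptides stored in secretory granules, went from 4416, 4522 and 4669 to 30655, 29358 and 25490.0 (2.65, SE 0.07, limma adjusted p = 7.47e-21). In none of these genes did the groups overlap. CHAC1, which degrades glutathione, rose by 2.61, ADM2, a peptide hormone, by 2.53, the RNA helicase DDX25 by 2.40, and SLC7A11, the cystine transporter, by 2.13. PCDH10, a protocadherin, rose by 2.16, the diacylglycerol kinase DGKK by 2.11 and TAFA4, a secreted chemokine-like protein, by 2.04. The divergent transcript ODC1-DT (2.23) and the tubulin pseudogene TUBA3FP (2.09) were also in this group, and reads of TUBA3FP are uncertain because tubulin genes are near copies of each other.

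**Figure D2:**
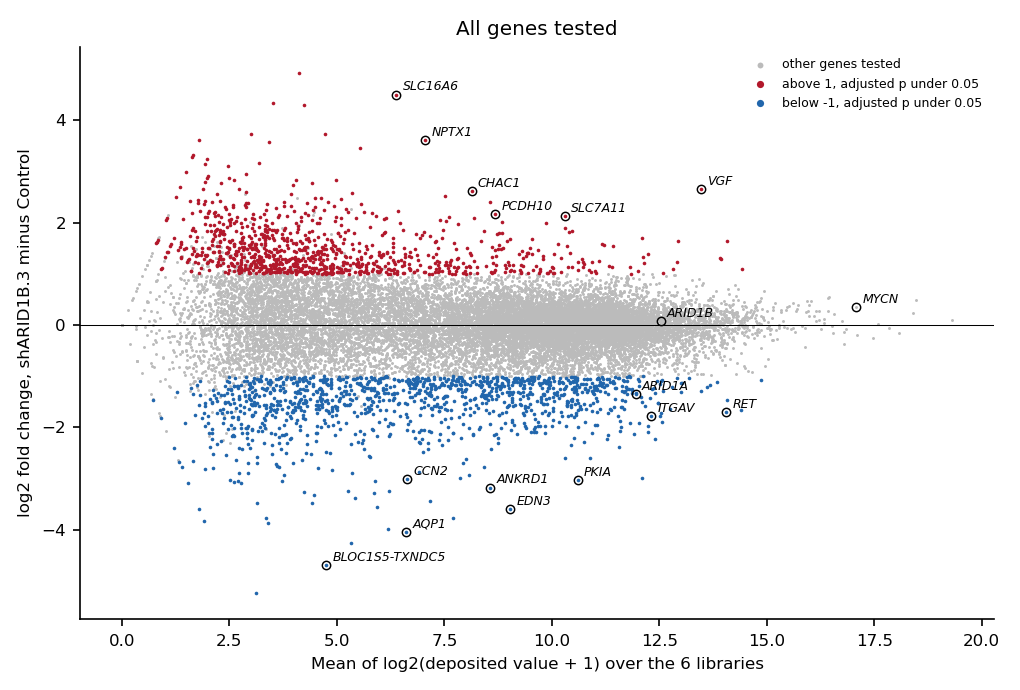
Log2 fold change of the libraries labelled shARID1B.3 minus the control on the y axis against the mean log2(value + 1) of the 6 libraries on the x axis, for 18584 genes. Red and blue points are the 966 and 1223 genes called past 1 in size, and circles mark named genes. VGF (2.65) and RET (-1.71) changed among genes with many reads, and MYCN rose by 0.36.

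Genes of amino acid supply and of the ATF4 response rose almost without exception. ATF4 is a transcription factor that is translated when amino acids run short or the endoplasmic reticulum is stressed, and its targets import, make and charge amino acids. Of 30 genes in this list, all tested, 28 rose, 1 fell and 1 was not called, and 11 rose past 1, with a list median of 0.83 against 0.01 over all genes tested. ATF4 itself had values of 14450.4, 14224 and 14703 in the control libraries and 21835, 21943 and 22569.7 in those labelled shARID1B.3 (0.61). The cystine transporter SLC7A11 went from 612, 585 and 608 to 2620.2, 2683 and 2603, and ASNS, asparagine synthetase, from 2470.1, 2388 and 2383 to 7504, 8034 and 8008 (1.70, SE 0.03, limma adjusted p = 1.12e-23). Replicates of both genes lay close together and groups were well apart. The effectors of this response also rose, namely CHAC1 (130.4, 99.6 and 109.9 against 673, 737 and 674), NUPR1 (2.58), SESN2, an inhibitor of mTORC1 signalling (1.80), DDIT3, the factor CHOP (1.46), ATF5 (1.38) and TRIB3 (0.98). Serine synthesis was represented by PHGDH (1.31), PSPH (1.13) and PSAT1 (0.82), the transporters by SLC7A1 (1.38), SLC3A2 (0.83), SLC1A5 (0.48) and SLC7A5 (0.47), and tRNA charging by AARS1 (0.90) and GARS1 (0.77). MTHFD2, a mitochondrial folate enzyme, was the member that fell, from 8034, 7949 and 8005 to 5456, 5569 and 5684 (-0.52), and WARS1 was not called (0.06, limma adjusted p = 0.0527) but was called without control replicate 1 or without shARID1B.3 replicate 1, at 0.09 in both cases.

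Cytosolic ribosomal protein genes shifted together by a small amount. Of 78 genes, 76 rose, 1 fell and 1 was not called, with a list median of 0.28, and the median stayed between 0.28 and 0.35 under 3 other scalings. RPL28 rose by 0.59 and RPL17 by 0.57, the largest rises of the list. RPS20 was the member that fell (-0.09), with values that overlapped between groups (20056, 18958 and 19922 against 18004, 18256 and 19109), and its call was lost with upper-quartile scaling and by edgeR. Ribosomal protein genes have many processed copies in the genome, and how reads were shared among them is not stated.

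The secretory granule and synaptic vesicle list moved in both directions. Of 33 genes tested, 13 rose (39.4%) and 15 fell (45.5%), with a median of -0.10. Of all genes tested, 31.9% rose and 32.0% fell. CHGA, chromogranin A, the major granule protein of sympathoadrenal cells, fell from 18943, 19823 and 19832 to 10553, 7086 and 8816 (-1.17, SE 0.08). The libraries labelled shARID1B.3 were themselves spread for this gene, and the related CHGB (-0.38) moved to -0.24 without shARID1B.3 replicate 2. The synapsin SYN2 (-1.01), the synaptotagmin SYT11 (-0.84) and the prohormone convertase PCSK1 (-0.82) fell as well. Against these, VGF rose, as did the synapsin SYN1 (0.93), the complexin CPLX1 (0.78) and SYNPR (1.53), whose values were 9.40, 10.1 and 11.3 and 30.9, 34.2 and 29.4.

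Catecholamine synthesis and storage genes were mostly lower. Of 11 genes tested, 8 fell and 2 rose, with a median of -0.44. GCH1, which makes the cofactor of tyrosine hydroxylase, went from 2503, 2574 and 2579 in the control libraries to 732, 525 and 709 in those labelled shARID1B.3 (-1.98, limma adjusted p = 7.21e-17). DBH, which converts dopamine to noradrenaline, went from 476, 591 and 519.7 to 156, 161 and 166 (-1.71). The enzyme that starts the pathway, TH, fell less (-0.41). SLC18A1 (-0.69) and SLC18A2 (-2.11), the vesicular monoamine transporters, fell, the latter from 14.1, 14.6 and 15.4 to 2.99, 0.95 and 5.18, few reads in every library. DDC, which makes dopamine, rose (0.40), the noradrenaline transporter SLC6A2 was not called (-0.04, though called at -0.08 without shARID1B.3 replicate 1, and positive with upper-quartile scaling), and CYB561 (-0.44) and MAOA (-0.67) fell. MAOB rested on a handful of reads (0, 3.36 and 1.03 against 1.99, 7.60 and 5.18), and its call was lost without control replicate 1, without control replicate 3, without shARID1B.3 replicate 2 or without shARID1B.3 replicate 3. It was also lost by edgeR, by DESeq2, with a pseudocount of 5, without a filter on low values and in a fit of the 6 libraries alone.

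Factors of adrenergic identity were lower on balance, though MYCN and GATA3 rose. Of 23 adrenergic factors, 14 fell and 5 rose, with a median of -0.24. KLF13, a zinc-finger factor, went from 4252, 4131 and 4158 to 2539, 2263 and 2444 (-0.79, SE 0.04, limma adjusted p = 2.96e-15). HAND2, a basic helix-loop-helix factor of the lineage, went from 19025, 19481 and 19187 to 17254, 15725 and 15964 (-0.24). Neither gene had overlapping groups. SATB1 (-0.78) and ISL1 (-0.34) also fell. MYCN, the amplified oncogene, had values of 120355, 123481 and 124192 in the control libraries and 165689, 148109 and 158121 in those labelled shARID1B.3 (0.36), and GATA3 rose by 0.61, LMO1 by 0.49 and TBX2 by 0.24.

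Mesenchymal-state factors were lower as well. Of 22 tested, 13 fell and 3 rose, with a median of -0.17. LOXL2, a lysyl oxidase that crosslinks collagen, went from 3879.5, 3779.7 and 3812 to 722, 848 and 787 (-2.29), and YAP1 (-1.28), the effector of the Hippo pathway, and SNAI1 (-1.13) fell too. ID3 (1.24) and ID1 (0.63), inhibitors of basic helix-loop-helix factors, rose, with ID3 at 1451, 1393 and 1446 and 3012, 3936 and 3266. SNAI2 was not called, with values of 632, 646 and 606 against 517, 718 and 654.

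The labelled cell line was checked against its markers. All 12 sympathoadrenal markers were detected, and 9 of them fell and 3 rose. Their summed value was 220800 to 226300 in the control libraries and 218700 to 247400 in those labelled shARID1B.3. MYCN, which rose, made up most of this sum in both groups, so the sum does not show the falls of the other markers. STMN2 fell by 0.96 on the log2 scale. The 8 fibroblast markers summed to 43150 to 43640 in the control and 32330 to 34090 under the label shARID1B.3. Epithelial markers summed to 161 to 178 and 172 to 192, leukocyte markers to 430 to 460 and 319 to 331, and endothelial markers to 42.5 to 74.0 and 14.9 to 17.3, with KRT5 at 0 in all 6 libraries and PRRX1, CD3E and PECAM1 at 0 in the control. In bulk RNA, fewer cells of a kind and less RNA per cell cannot be told apart, and the part of the fibroblast markers in the falls of collagens and of other matrix genes was not tested.

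Neurotrophic receptors and ligands formed the list with the lowest median among those of more than 10 tested genes, at -0.996. Of 17 genes tested, 11 fell, 8 of them past 1, and 1 rose. RET, the receptor of the GDNF family, had values of 29923, 31384 and 30687 in the control libraries and 9427, 9569 and 9181 in those labelled shARID1B.3 (-1.71, SE 0.03, limma adjusted p = 4.47e-25). HGF, the ligand of MET, went from 1218, 1188 and 1229 to 279.7, 247 and 303 (-2.13), and ALK, a receptor kinase and neuroblastoma oncogene, from 868, 872 and 877 to 323, 218 and 279 (-1.69). All of these groups were apart. NGFR (-1.78), GFRA2 (-1.08), GFRA3 (-1.27), KIT (-1.11), LTK (-1.08) and the ligand NRTN (-0.996) fell as well. MDK, the growth factor midkine, was the member that rose, from 10040.0, 9871 and 10322 to 25018, 24320.0 and 24704 (1.29), whereas its relative PTN was not called (-0.03).

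In the endothelin system, the ligands that were called fell, and of the receptors only EDNRA was called, as higher. The ligands EDN3 and EDN1 (-3.58 and -1.48) fell, and EDN2 was not called (-1.02, limma adjusted p = 0.0629), though it was without shARID1B.3 replicate 2, at -1.34. EDNRA, a receptor for endothelin-1, rose from 657, 638 and 649 to 1728, 2163 and 1987 (1.59). EDNRB, the main receptor of endothelin-3, had few reads and was not called (18.8, 7.83 and 15.4 against 10.9, 6.65 and 11.2). The converting enzymes split, with ECE1 at 0.11, a call lost without control replicate 3, and ECE2 at -1.54, and ECE2 moved to -0.61 without shARID1B.3 replicate 2. In a fit of the 6 libraries alone ECE2 lost its call. With 3 genes lower and 2 higher of 7, the median of -1.02 moved to -0.58 without shARID1B.3 replicate 1, to -0.61 without shARID1B.3 replicate 2, and to 0.11 when at least 10 reads were asked of every library.

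Axon guidance genes were lower in 41 and higher in 11 of 66 genes tested, with a median of -0.42. SEMA3F, a secreted repellent, went from 1806, 1819 and 1845 to 469.9, 448 and 483 (-1.96, SE 0.04, limma adjusted p = 1.46e-21). SEMA3E (-1.36), SLIT1 (-1.44) and the ephrin receptor EPHA4 (-1.38) fell. UNC5B and DCC, which bind netrins, rose, with UNC5B at 14867, 15257 and 14885 and 30649, 33997 and 31074 (1.09) and DCC, at low levels, at 5.87, 15.7 and 20.5 and 72.7, 51.3 and 80.3 (2.33). NTNG1 rose by 1.49. EPHA7, with few reads, was called higher (1.12), a call lost without control replicate 2, where it was 0.64, or without shARID1B.3 replicate 2. That call was also lost by DESeq2 and in a fit of the 6 libraries alone.

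Adhesion to the matrix was represented by integrins, of which 12 of 21 tested genes fell, 9 of them past 1, and 2 rose. ITGAV, the alpha-V chain of the vitronectin receptors, had values of 9692, 9164 and 9298 in the control libraries and 2625, 2779 and 2813 in those labelled shARID1B.3 (-1.78, SE 0.04, limma adjusted p = 5.98e-21). Its partner ITGB3 went from 179, 167 and 158 to 18.9, 26.6 and 14.7 (-3.04), and ITGA8 from 63.4, 80.6 and 64.7 to 8.96, 1.90 and 11.2 (-3.31). All 3 fell in every library. ITGA5 (-2.06), ITGA3 (-1.60), ITGA9 (-1.36), ITGA6 (-1.33), ITGA4 (-1.16) and ITGB5 (-1.06) fell past 1, and ITGA1 fell by less (-0.30). The member that rose most was ITGB4 (1.01), from 18.8, 15.7 and 24.6 to 57.7, 30.4 and 36.3, and ITGA2 (0.17, overlapping groups) lost its call without any of the control replicates, without shARID1B.3 replicate 2 or without shARID1B.3 replicate 3. ITGA2 also lost it with a pseudocount of 0.5, without a filter on low values, with a replicate block and in a fit of the 6 libraries alone. The list median was -0.65 and moved to -0.41 without shARID1B.3 replicate 1. Of the kinases that relay integrin signals ILK (-0.63) and SRC (-0.25) fell. They belong to 28 genes that the study names and chose in its own comparisons, which share the control libraries, so that the count, 19 lower and 4 higher with a median of -0.29, is not independent evidence of a direction.

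Cadherins fell in 6 (37.5%) and rose in 5 (31.2%) of 16 tested genes, near the 32.0% and 31.9% of all genes tested. CDH11, a mesenchymal cadherin, went from 1852, 1936 and 1894 to 489, 382 and 461 (-2.10), and CDH24 (-1.14), CDH4 (-1.02) and CDH22 (-1.61) fell. CDH2, N-cadherin, which had the most reads of the list, fell slightly (-0.23). The rises were at low levels, with CDH7 at 17.6, 2.24 and 13.3 and 53.8, 47.5 and 54.4 (2.47), CDH12 at 3.52, 4.48 and 3.08 and 22.9, 23.8 and 14.7 (2.17), and CDH26 and CDH10 at 1.61 and 0.72. The median of -0.44 moved to -0.24 without control replicate 1.

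Matrix genes leaned the same way. Of 33 collagen chains tested, 21 fell and 2 rose, with a median of -0.45. COL5A1, a fibrillar collagen, went from 3897, 3970.0 and 3886 to 1203, 1431 and 1137 (-1.65), and COL26A1, COL23A1 (-1.72), COL16A1 (-1.59) and COL3A1 (-0.92) fell. COL5A2 (0.68) and COL9A2 (0.45) rose. Laminin chains were split, with 6 of 12 lower and 3 higher and a median of -0.41. LAMC1, the gamma-1 chain, had values of 16144, 16667 and 16125 and 17272, 18027 and 17871 (0.12), LAMB1 fell by 0.34, LAMA4 by 1.11 and LAMB4 rose by 1.92 from few reads.

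Metalloproteinases and their inhibitors included 23 lower and 10 higher genes of 37 tested, with a median of -0.50. TIMP3, an inhibitor bound to the matrix, went from 653, 619 and 645 to 102, 96.9 and 111 (-2.62, limma adjusted p = 2.35e-18), and ADAMTS9, a secreted protease, from 10877, 10931 and 10849 to 3174, 3479 and 3259.6 (-1.72). Next to MMP28, ADAMTS15 fell as well (-2.02). ADAM17, a sheddase, rose (0.50), and MMP9 rose from next to nothing (1.17, 0 and 1.03 against 6.97, 4.75 and 2.59).

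**Figure D3:**
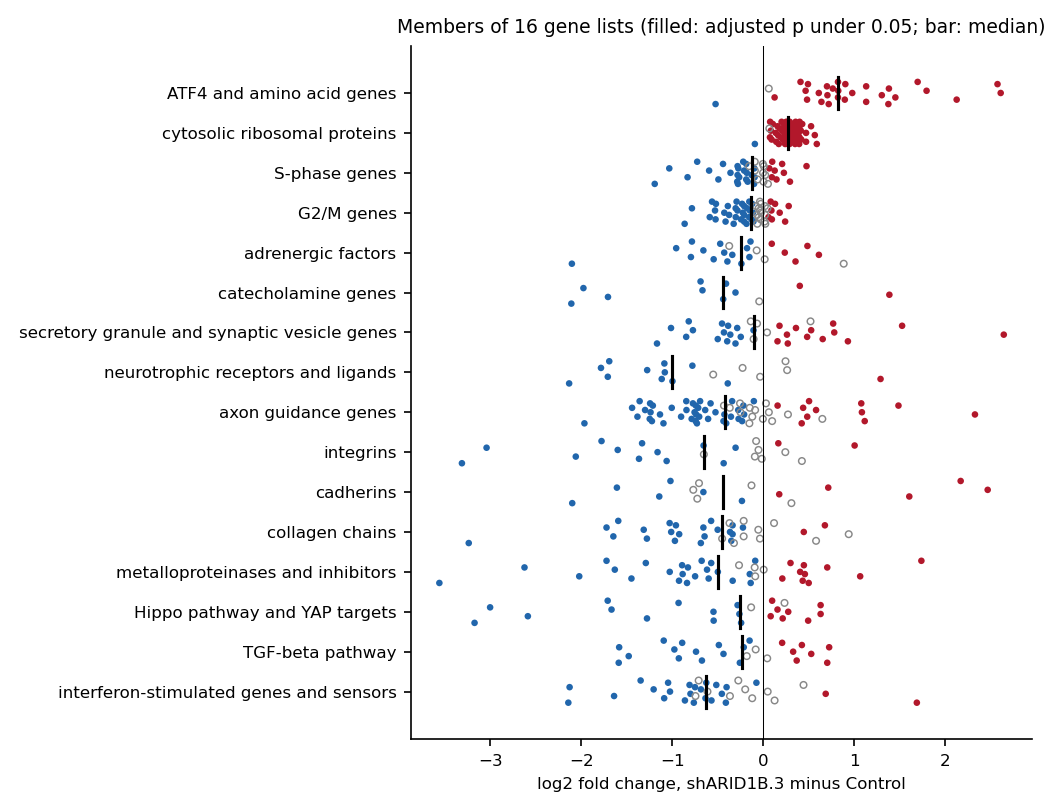
Log2 fold changes (x axis) of the tested members of 16 gene lists (y axis), libraries labelled shARID1B.3 minus control. Filled points were called, red higher and blue lower, open circles were not, and black bars are medians, which run from -0.996 for neurotrophic receptors and ligands to 0.83 for the ATF4 list.

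The list of 22 Hippo pathway genes held 12 lower (54.5%) and 8 higher (36.4%), with a median of -0.25. YAP1 and its partners drive growth genes in the nucleus and are held back by a kinase cascade. ANKRD1 and CCN2, standard target genes, went from 1229, 1088 and 1107 to 107, 156 and 119 (-3.17) and from 307, 287 and 252 to 29.9, 41.8 and 31.9 (-3.00), and CCN1 from 667, 682 and 648 to 195, 217 and 198 (-1.71). Each of these genes had separate groups, and YAP1 itself fell from 531, 547 and 516 to 218, 227 and 212. Of the cascade, MOB1A, a kinase adaptor, fell from 4776, 4383 and 4665 to 747, 759 and 793 (-2.59, limma adjusted p = 2.51e-25), whereas SAV1 (0.63), NF2 (0.63), STK4 (0.28) and the TEAD cofactor VGLL4 (0.50) rose.

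In the TGF-beta pathway 14 of 24 genes fell (58.3%) and 7 rose (29.2%), with a median of -0.23. Among the ligands, TGFB2 fell (101, 107 and 105 to 33.9, 34.2 and 34.5, -1.58), as did TGFB3 (-0.89), while TGFB1 rose (193, 193 and 244 to 324, 383 and 319, 0.71). Receptors followed both ways, with TGFBR2 (-0.74) and TGFBR1 (-0.43) lower and the activin receptors ACVR1 (0.53) and ACVR2B (0.43) higher. Among the target genes, TGFBI, a matrix protein, went from 7866, 7911 and 8069 to 2373, 2937 and 2657 (-1.59).

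The Notch pathway had 8 lower (40.0%) and 5 higher (25.0%) genes of 20 tested, and none past 1. Of all genes tested, 32.0% were lower and 31.9% higher. The ligands JAG1 (-0.79) and JAG2 (-0.66), the non-canonical ligand DLK1 (-0.88) and the DNA-binding factor RBPJ (-0.57) fell. HES1, a target gene, rose from 382, 452 and 447 to 821, 936 and 788 (0.99), and NRARP, a feedback inhibitor, from 270.1, 269.7 and 259 to 585, 522 and 458 (0.96). The median was -0.08, and -0.05 without shARID1B.3 replicate 3.

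Interferon-stimulated genes and the sensors that induce them were lower in 22 and higher in 2 of 34 genes tested, with a median of -0.63. Several are at low levels in these cells. MX1, an antiviral GTPase, had values of 21.1, 35.8 and 29.8 in the control libraries and 3.98, 6.65 and 6.91 in those labelled shARID1B.3 (-2.13, SE 0.32, limma adjusted p = 2.59e-06), and IFIT3 went from 36.4, 25.7 and 20.5 to 3.98, 4.75 and 7.77 (-2.14). Better measured were SAMD9, from 135, 119 and 125 to 48.8, 60.8 and 39.7 (-1.35), PARP14, from 1125, 1110.3 and 1084 to 539, 514 and 509 (-1.09), PARP9 (-1.20) and OAS3 (-0.80). No library of one group reached the other for these genes. The factors STAT2 (-0.63) and IRF9 (-0.76) fell too, and the sensor TLR3 was not called (0.05). USP18, which damps the pathway, rose (0.69), as did HERC5 (2.35, 3.36 and 5.14 against 10.9, 17.1 and 12.9). Of 14 genes of MHC class I presentation tested, 6 fell (42.9%) and 1 rose (7.14%), with a median of -0.19. The peptide transporter TAP1 fell by 1.17 and the trimming enzyme ERAP1 by 0.67, and TAPBP rose by 0.30.

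Cell-cycle genes changed by small amounts. Of 43 S-phase genes 24 fell and 9 rose, with a median of -0.13, and of 54 G2/M genes 31 fell and 8 rose, with a median of -0.14 (32.0% of all tested genes fell and 31.9% rose). USP1, a deubiquitinase of the DNA damage response, went from 3150.1, 3039 and 2930.2 to 1334, 1323 and 1334 (-1.19), the cyclin CCNE2 fell by 1.03 and RRM1, a subunit of ribonucleotide reductase, by 0.83 on the log2 scale. The polymerase subunits PRIM1 (0.48), POLD3 (0.30) and POLA1 (0.23) rose. CCND1, cyclin D1, had values of 39766, 39681 and 39769.6 in the control libraries and 31460.0, 34505 and 32021 in those labelled shARID1B.3 (-0.28), whereas its kinase CDK4 rose (0.44). In all, 9 of 20 G1 regulators fell and 6 rose (median -0.14), with E2F5 (-0.90) and RBL1 (-0.66) lower and E2F6 (0.58) and E2F7 (0.35) higher.

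CDK inhibitors gave no common direction. CDKN1C, p57, fell (291, 262 and 292 to 159, 142 and 151, -0.90), and so did CDKN2D (-0.60, with overlapping groups). CDKN2A (0.35) and CDKN2C (0.20) rose, and CDKN1A, p21, was not called (139, 135 and 164 against 123, 137 and 116). CDKN1B was called higher (0.08), a call lost without control replicate 1, control replicate 3 or shARID1B.3 replicate 2. The median of the 7 genes, 0.08, was -0.08 without control replicate 2, and -0.07 with at least 10 reads asked of every library. In the BCL2 family 7 of 14 genes fell and 5 rose (median -0.21). The survival factors MCL1 (-0.74) and BCL2 (-0.60) fell, the BH3-only genes BMF (1083, 1120.4 and 1227 to 2316, 2813 and 2444, 1.14) and BBC3 (0.83) and the effector BAX (0.49) rose, and the BH3-only gene HRK fell (-1.09).

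Among the 30 SWI/SNF subunits, 13 fell (43.3%, against 32.0% of all genes tested) and 12 rose (40.0%, against 31.9%). The median was 0.01, and ARID1A was among those that fell. DPF3, a neural BAF subunit, was the other gene that fell past 1, from 422, 340.2 and 368 to 160.3, 162 and 188 (-1.14). ARID2, the matching subunit of the PBAF complex, went from 4114, 3964 and 3770.3 to 2372, 2239.5 and 2387 (-0.76), and the ATPases split, with SMARCA2 lower (-0.48) and SMARCA4 higher (0.15). SS18 rose most (1263, 1179.7 and 1195 to 2098, 2262 and 2249, 0.86). The core subunits SMARCB1 (-0.01) and SMARCC1 (-0.02) were not called, and with upper-quartile scaling SMARCB1 was called at 0.068 and SMARCC1 had a positive sign. SMARCC2 was called at -0.07 and lost that call under 3 single-library omissions (control replicate 2, control replicate 3 and shARID1B.3 replicate 2). It also lost the call with upper-quartile scaling, with scaling to total reads and by edgeR.

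Polycomb and trithorax genes rose in 19 (47.5%) and fell in 14 (35.0%) of 40, with a median of 0.06 and none past 1. For this list and the next 3, the shares over all genes tested were 31.9% higher and 32.0% lower. CBX6 (0.92), KDM6B, a demethylase of the Polycomb mark (0.91), and KMT2D (0.50) rose, and PCGF6 (-0.93), PCGF5 (-0.92) and RBBP4 (-0.70) fell. Of 14 HOX genes tested, 6 rose (42.9%) and 2 fell (14.3%), with a median of 0.17. HOXC6 (0.45) and HOXD4 (0.52) were higher and HOXC9 (-0.60) and HOXC10 (-0.57) lower. Cholesterol and fatty acid genes fell in 22 (66.7%) and rose in 8 (24.2%) of 33 (median -0.22). SCD, a fatty acid desaturase (0.32), and SREBF1, a regulator of lipid synthesis (0.31), were among those that rose. Ligand-gated receptor subunits fell in 13 (44.8%) and rose in 8 (27.6%) of 29 tested genes. Their median of -0.02 was positive with upper-quartile scaling (0.06) and with scaling to total reads (0.01). It was -0.17 without control replicate 2, -0.10 without shARID1B.3 replicate 1, -0.05 without control replicate 1, 0.01 without control replicate 3 and 0.03 without shARID1B.3 replicate 2. The nicotinic subunit CHRNA3 went from 5899.7, 5882 and 6062 to 2955, 2793 and 2812 (-1.06), and the GABA-A subunits GABRA4 (202, 185 and 166 to 580.4, 558 and 591, 1.64) and GABRB1 (2.25) rose.

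The libraries labelled shARID1B.3 were then set directly against those labelled shARID1B.2, without the control, to ask how far libraries with the same labelled target differ. Limma called 12269 of 18584 genes (66.0%), 6140 of them (33.0%) higher and 6129 (33.0%) lower under the label shARID1B.3, and 2542 genes (13.7%) past 1, 967 (5.2%) higher and 1575 (8.48%) lower. This split depends on scaling, since scaling to total reads moved the median of all genes by -0.11 and left 4888 of 12478 called genes higher. ARID1A was slightly higher under the label shARID1B.3 (0.37, limma adjusted p = 3.31e-11), and so was ARID1B (0.28).

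VGF had the largest difference upwards of all genes tested, with 1333, 1382 and 1532 under the label shARID1B.2 against 30655, 29358 and 25490.0 under the label shARID1B.3 (difference 4.33, limma adjusted p = 3.99e-25). SLC16A6 (18.4, 22.0 and 28.5 against 379, 381 and 424), NPTX1 (4.00) and PI15, a secreted protease inhibitor (113, 99.6 and 127 against 1490.3, 1428 and 1421), were also far higher. So were LOXHD1 (3.76), SERTM2 (3.64), the chloride channel relative ANO3 (3.23) and the unnamed locus AC008555.2 (3.23). On the other side, COL26A1 had values of 532, 578 and 572 under the label shARID1B.2 and 25.9, 22.8 and 20.7 under the label shARID1B.3 (-4.54). SULF2, an enzyme that edits heparan sulfate, went from 1951, 2131 and 2073 to 167, 162 and 163 (-3.63), and MAOA from 853, 847 and 833 to 94.6, 83.6 and 82.9 (-3.27). No groups overlapped in these 3 genes. AIF1L (-3.11), SGPP2 (-3.11), AC068547.1 (-4.19), BLOC1S5-TXNDC5 (-6.19, not called by DESeq2) and the histone gene H2BC12 (-3.39, one of a family of near copies) completed the falls.

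**Figure D4:**
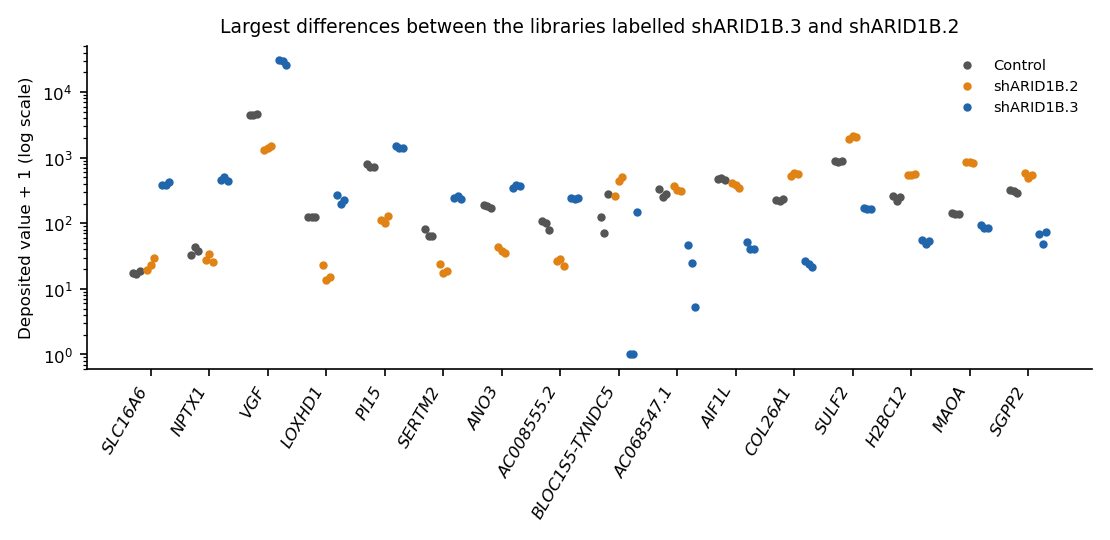
Deposited values plus 1 on a log axis for the 8 largest differences each way between the libraries labelled shARID1B.3 (blue) and shARID1B.2 (orange), with the control (grey). Each point is a library, and VGF stood at 25490.0 to 30655 under the label shARID1B.3 and at 1333 to 1532 under the label shARID1B.2.

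The lists differed between these conditions as well. ATF4 and amino acid genes were higher under the label shARID1B.3 in 27 of 30 genes and lower in 2, with a median difference of 1.10, and S-phase genes were higher in 36 of 43 and lower in 3, with a median of 0.44. For G2/M genes the counts were 39 and 3 of 54 (median 0.27, and 0.16 with scaling to total reads). Lower were 22 of 33 collagen chains (median -0.63), 19 of 34 interferon-stimulated genes (-0.65), 10 of 14 MHC class I genes (-0.70), 22 of 29 ligand-gated receptor subunits (-0.54) and 9 of 17 neurotrophic receptors and ligands (-0.88, but -0.06 with at least 10 reads asked of every library). RET went against its list, with 5102, 4949 and 5138 under the label shARID1B.2, below 9427, 9569 and 9181. Ribosomal protein genes had a median difference of 0.00 (-0.11 with scaling to total reads), with 20 higher and 26 lower of 78.

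Beside the other conditions of the study, which share the 3 control libraries, the libraries labelled shARID1B.3 had S-phase genes near the control level. The median of the 43 S-phase genes per library was -0.15 to -0.11 in them and lay between -1.11 and -0.57 in the 15 libraries of the other 5 labels. The ATF4 list had medians per library of 0.81 to 0.89 under the label shARID1B.3, 1.51 to 1.54 under shARID1A.4 and 1.32 to 1.34 under shARID1A/B.2.3, but -0.19 to -0.17 under shARID1B.2, -0.32 to -0.27 under shARID1A.2 and -0.27 to -0.23 under shARID1A/B.4.2. CHAC1 was high under the same 3 labels, with mean values of 695 under the label shARID1B.3, 2837 under shARID1A.4, 2181 under shARID1A/B.2.3 and 84.5 to 129 under the other 3 labels, against 113 in the control. The median of neurotrophic receptors and ligands was -0.88 to -0.85 under the label shARID1B.3, -1.13 to -0.94 under shARID1A.4 and -0.76 to -0.65 under shARID1A/B.2.3. It was -0.46 to -0.12 under shARID1A.2, -0.14 to 0.00 under shARID1B.2 and -0.004 to 0.09 under shARID1A/B.4.2.

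**Figure D5:**
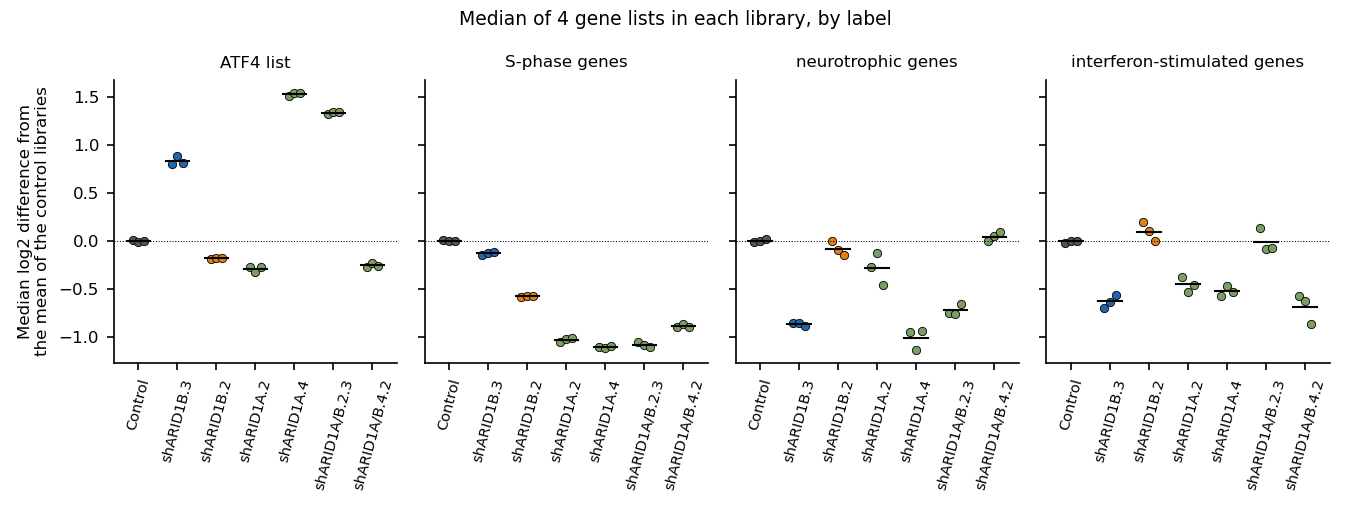
Median log2 difference from the control mean (y axis) for 4 gene lists in each of 21 libraries, by label (x axis). Points are libraries and bars their means. The S-phase median is -0.13 on average under the label shARID1B.3 and -0.57 or lower under the other 5 labels, and the ATF4 list is above 0 under shARID1B.3, shARID1A.4 and shARID1A/B.2.3.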

How the data were processed

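Poly(A) RNA of SK-N-BE(2) cells was sequenced 72 h after transduction on a NovaSeq instrument from stranded libraries, 3 for each of 7 labels. The submitters' processing notes name STAR 2.5.3a, RSEM 1.3.0, DESeq2 1.26.0 and GRCh38 with no role or order, and the annotation release and strand setting are not given in the sources used here. The deposited signal values are reads per gene that the authors divided by 1 size factor per library, at 2 decimals. Dividing by the smallest step gave whole reads for 100% of values (tolerance 0.05, largest deviation 0.00946), which yielded the depths and the counts for edgeR and DESeq2. Authors' tables of fold changes and p-values were not used, and 0 columns were without a sample.

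Genes passing edgeR's filterByExpr (18584) were tested on log2(value + 1) by limma with a trend, all 7 conditions in 1 fit (14 residual degrees of freedom), with Benjamini-Hochberg adjustment. Settings changed 1 at a time were the pseudocount, the filter, TMM, upper-quartile and total-read scaling, edgeR, DESeq2, a fit of 6 libraries, a replicate block and the omission of each library. In data simulated for the comparison with the control on 18584 genes, limma recovered 100 of 100 genes changed 2-fold and 100 of 100 changed 4-fold, with 14 false calls among 18384. The changed genes were few and none of them had a low mean. The simulation therefore does not test recovery for genes with few reads or where most genes change. Versions were R 4.3.3, limma 3.58.1, edgeR 4.0.16, DESeq2 1.42.0, Python 3.11.15, numpy 2.4.6, pandas 2.3.3 and matplotlib 3.10.9.

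The libraries and the 29 gene lists were chosen with earlier results of these data known. Named genes are ARID1A and ARID1B, the 12 largest rises and falls with a mean of at least 100, up to 4 called members each way per list (any member in lists of up to 12), SWI/SNF subunits, genes the study names, markers, and the 8 largest differences each way from shARID1B.2. Other genes were chosen after their values were seen: ATF4, ATF5, DDIT3, TRIB3, ASNS, PHGDH, PSPH, PSAT1, SLC7A1, SLC7A5, SLC3A2, SLC1A5, AARS1, GARS1, WARS1, NRTN, GFRA2, GFRA3, KIT, LTK, PTN, TGFB3, TGFBR1, TGFBR2, ITGA6, ITGB5, OAS3, PARP9, PARP14, STAT2, IRF9, TLR3 and those under the closing observations. Some genes that the rule names are not reported here. Gene coordinates are from GENCODE release 29 by identifier without version (58541 of 60728 matched).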

Additional observations from a re-analysis of the deposited data

Results flagged for a closer look

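Among the genes named in the report, 8 changed by more than 1 on the log2 scale against the control in opposite directions under the labels shARID1B.3 and shARID1B.2, and the direct difference between those labels was called by limma. Over all 18584 genes tested there were 65 of this kind. By contrast, 277 genes were called lower and 403 called higher past 1 under both labels. Both comparisons with the control share the control libraries. VGF, the neuropeptide precursor, was at 2.65 under the label shARID1B.3 and -1.68 under shARID1B.2, a difference of 4.33 (adjusted p = 3.99e-25). COL26A1, a collagen chain, was at -3.24 and 1.31, a difference of -4.54 (4.52e-23), and the sulfatase SULF2 was at -2.42 and 1.21, a difference of -3.63 (7.67e-28). H2BC12, a histone gene with near copies, was at -2.20 and 1.19 (difference -3.39, adjusted p = 2.03e-21). SERTM2 was at 1.81 and -1.83 (difference 3.64, adjusted p = 2.96e-16). ANO3 was at 1.001 and -2.23 (difference 3.23, adjusted p = 1.34e-14), and the unnamed locus AC008555.2 at 1.34 and -1.89 (difference 3.23, adjusted p = 8.56e-17). KRT18, a keratin and an epithelial marker, was at -1.24 and 1.45 (difference -2.69, adjusted p = 3.71e-08).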

How the results depend on the processing

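Against the control, 10658 to 12088 genes were called over all alternatives and 11183 to 11300 without any 1 library. Asking for at least 10 reads in each of the 21 libraries left 14637 genes to test in place of 18584. This also removes genes with many reads elsewhere that are low in any 1 library. Of these, 1168 were past 1 and 340 met the stricter cutoffs (22.9% of them higher, against 36.0% of 659). Against shARID1B.2, 1511 were past 1. With the main filter and without any 1 library, 2104 to 2181 genes were past 1 and 591 to 643 met the stricter cutoffs. Against shARID1B.2, 2495 to 2549 were then past 1, and 11674 to 11779 were called. With upper-quartile scaling SMARCB1 was called at 0.068 in place of -0.01, the cause of which was not tested. That scaling also moved the list medians nearest to 0, to -0.05 for S-phase, -0.06 for G2/M, -0.07 for G1, -0.11 for MHC class I, -0.10 for mesenchymal-state, -0.14 for BCL2, -0.03 for secretory granule, -0.01 for Notch and 0.14 for polycomb and trithorax genes. Of 30 list medians 26 kept their sign in every alternative, the exceptions being CDK inhibitors, SWI/SNF subunits, the endothelin system and ligand-gated receptor subunits. Between control and shARID1B.3 libraries, correlations of deviations were -0.10, -0.04 and -0.02 for the same replicate number and -0.04 to 0.07 for different numbers. Between shARID1B.2 and shARID1B.3 they were -0.05, 0.12 and -0.18 for the same number and -0.13 to 0.18 for different ones. Deviations from a mean of 3 libraries are tied to each other, so these values cannot exclude a pairing. With a replicate block 11844 genes were called against the control and 12243 against shARID1B.2, and among named genes ITGA2 was the call lost. Genes with few reads limit the fold changes, since a pseudocount of 5 left 1590 genes past 1, and 442 at the stricter cutoffs.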

Other observations

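Genes with many reads that changed most are added here, chosen after their values were seen, among 6891 genes with a mean value of at least 1000 over the 6 libraries, of which 2598 were called higher and 2916 lower by limma. TXNDC5, a disulfide isomerase of the endoplasmic reticulum that shares reads with its readthrough transcript, had values of 12698, 12192 and 12096 in the control libraries and of 1599.8, 1616 and 1452 in those labelled shARID1B.3, a change of -2.99 (SE 0.04, adjusted p = 5.92e-27). Under the label shARID1A.4 it was at -2.31, and under the other 4 labels between -0.46 and 0.02. TMBIM6, which restrains cell death at the endoplasmic reticulum, went from 11790.1, 11562 and 11738 to 2495, 2542 and 2432 (-2.23). It was at -1.07 under shARID1A.2, -1.24 under shARID1A.4 and -1.145 under shARID1A/B.4.2, and at 0.02 under shARID1B.2 and 0.25 under shARID1A/B.2.3. RAB11FIP2, an adaptor of recycling endosomes (-2.60), RRP1B, a nucleolar protein (-2.38), and SGCB, a sarcoglycan (-2.35), fell as well, and each was also lower under the other 5 labels. PKIA was at -3.02 under shARID1B.3, -1.5 under shARID1A.2, -1.51 under shARID1A.4, -1.365 under shARID1A/B.4.2, -0.53 under shARID1B.2 and 0.54 under shARID1A/B.2.3.

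ODC1, ornithine decarboxylase and the first enzyme of polyamine synthesis, is a known target of MYC proteins. Its values were 10056, 9562 and 9827 in the control libraries and 30191, 30796 and 30942 in those labelled shARID1B.3 (1.64, SE 0.02, adjusted p = 1.15e-25), with a change of 1.52 under shARID1A.4, 0.66 under shARID1A/B.2.3 and values from -0.47 to -0.10 under the other 3 labels. The protocadherin PCDH17 (1.89), ZNF385A (1.83) and TPBGL (1.82) rose too. The aldo-keto reductases AKR1C1, AKR1C2 and AKR1C3, whose sequences are so alike that their reads are uncertain, rose by 1.99, 1.98 and 2.00. AKR1C1 went from 442.8, 448.8 and 504.3 to 1452, 2364 and 1856 and was higher than the control under the other 5 labels as well, by 1.37 to 2.36.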
